A study of Mus musculus with 2 samples.

Results

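Single-cell RNA levels were measured in the celiac and superior mesenteric ganglia of mice, sympathetic ganglia that lie beside the abdominal aorta and send their axons to the gut, liver, pancreas and spleen. The cells described here are immune cells that carried RNA of Ccr2, of Cd209a or of both. A barcode was kept if it held at least 2 unique molecular identifiers (UMIs, each a counted RNA molecule) of Ccr2 plus Cd209a, no UMI of Xcr1 or Clec9a, fewer than 20 UMIs of the complement genes C1qa, C1qb and C1qc per 10000 UMIs, no UMI of Cd3e, Cd3d or Cd3g, and at least 10 UMIs of Lyz2 plus Cd74 per 10000. They were 389 of 24873 barcodes in all: 190 in library 1, or 1.51% of its barcodes (95% exact binomial interval 1.30 to 1.74), and 199 in library 2, or 1.62% (1.40 to 1.86). The intervals cover counting error only. Both libraries belong to 1 group, labelled CGSMG, of ganglia digested and triturated to single cells without a treatment named in the labels. The series text gives 20 mice of 7 to 8 weeks with males and females in equal number, without a strain or genotype in the sources used here. Which mice went into which library is not given either, so the spread between the libraries may be technical. All comparisons below are between cells of the same suspensions, and no condition was varied.

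Ccr2 is the receptor for the chemokine Ccl2 and carries monocytes out of the bone marrow and into tissues, where they can become macrophages or dendritic-like cells. Cd209a is a C-type lectin used in mice to mark conventional dendritic cells of type 2 and some monocyte-derived cells. Conventional dendritic cells depend on the growth factor receptor Flt3 and the transcription factor Zbtb46, and they show antigen to T cells on MHC class II molecules. Type 1 dendritic cells bear Xcr1 and Clec9a and need Irf8 and Batf3, whereas type 2 cells rest on Irf4 and Klf4. Resident macrophages depend on the receptor Csf1r and the factor Maf, and many make complement C1q.

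The cells were compared with 2402 C1q macrophages (1208 and 1194 in the libraries; at least 20 C1q UMIs per 10000), with 298 Xcr1 or Clec9a dendritic cells (133 and 165; at least 2 UMIs of these genes) and with the 11063 and 10721 remaining barcodes, under the same limits on the other genes for the immune populations. The Ccr2 and Cd209a cells held 2712096 and 2949448 UMIs in libraries 1 and 2, with a median of 13580 and 13838 UMIs per cell, against 8309 and 8419 in C1q macrophages and 14988 and 15482 in Xcr1 or Clec9a dendritic cells. A doublet caller marked 21 (11.1%) and 20 (10.1%) of the cells, against 4.45% and 5.09% of all barcodes. Of all barcode sequences, 64 occurred in both libraries, and 4 of the 389 cells had a barcode that also occurred in the other library. At the edges of the rule, 14 and 11 cells had exactly 2 UMIs of Ccr2 plus Cd209a, and 10 and 18 barcodes with 1 UMI stayed out although they met all other limits. Another 13 and 8 cells had 10 to 20 C1q UMIs per 10000, and 14 and 15 barcodes with 20 to 30 stayed out. With all other limits met, 192 and 237 barcodes with 30 or more stayed out too, as did 13 and 16 with 1 UMI of Xcr1 plus Clec9a. Of the Xcr1 or Clec9a dendritic cells, 94 of 133 and 128 of 165 also had at least 2 UMIs of Ccr2 plus Cd209a.

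The working name of these cells joins Ccr2 monocytes with Cd209a dendritic cells, and it was checked against marker genes. Of 16 markers of type 2 dendritic cells, all were detected, as they were in the remaining barcodes, and 15 were detected in C1q macrophages. Their levels summed to 2713 and 2707 UMIs per 1e+06 UMIs (CPM) in the Ccr2 and Cd209a cells of libraries 1 and 2. The sums were 877 and 880 CPM in C1q macrophages and 797 and 829 CPM in Xcr1 or Clec9a dendritic cells. Without Cd209a, which the rule used, the other 15 summed to 2131 and 2086 CPM, against 865 and 868 CPM in C1q macrophages and 797 and 824 CPM in Xcr1 or Clec9a dendritic cells. The markers of classical monocytes summed to 1789 and 1617 CPM, against 1612 and 1688 CPM in C1q macrophages and 571 and 668 CPM in Xcr1 or Clec9a dendritic cells, and Ccr2, on which the rule rests, is one of those 12 markers. Without Ccr2 they summed to 1265 and 1117 CPM, below the 1521 and 1565 CPM of C1q macrophages and above the 266 and 353 CPM of Xcr1 or Clec9a dendritic cells. Ly6c2, the antigen that defines classical monocytes, had a UMI in 4.21% and 4.02% of the cells. The share was 22.6% and 21.8% in the Xcr1 or Clec9a dendritic cells. It was 0.179% and 0.184% in the background barcodes, those without Ptprc and with little Lyz2 and Cd74. The background barcodes had a median of 6088 and 6085 UMIs. Plac8, another monocyte gene, was detected in 11.1% and 9.55% of the Ccr2 and Cd209a cells, against 6.82% and 6.29% of the background barcodes. Vcan, the proteoglycan versican, was detected in 5.79% and 8.04%, below the 11% and 12.8% of the background barcodes. Chil3 was at 2.58 and 8.14 CPM. Fn1, another gene of the list, was at 738 and 581 CPM, against 41.1 and 37.4 CPM in C1q macrophages. In edgeR's quasi-likelihood test, described below, 6 of 11 tested markers of classical monocytes were higher and 2 lower than in C1q macrophages, beside 7.94% and 6.53% of all genes tested. Against the remaining barcodes 9 were higher and 1 lower, beside 18.7% and 23.4% of all genes. Of 13 tested markers of type 2 dendritic cells, 8 were higher and none lower than in C1q macrophages. Against Xcr1 or Clec9a dendritic cells 5 were higher and 3 lower, beside 5.82% and 4.45% of all genes. As a UMI of Ly6c2 was found in few of the cells, they are called the Ccr2 and Cd209a cells here.

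Markers of other cell types were read as well. S100a9, Retnlg and Ngp of neutrophils, Cd79a and Igkc of B cells and Trbc2, Nkg7 and Gzma of lymphocytes had no UMI in these cells. Other members of these lists did. Markers of T, NK and innate lymphoid cells summed to 128 and 135 CPM, against 28.8 and 27.3 CPM in C1q macrophages, and 2 of 6 tested were higher. Neutrophil markers summed to 39.5 and 36.3 CPM, against 108 and 120 CPM, and B cell markers to 60.1 and 43.1 CPM, against 224 and 212 CPM. Th, the enzyme that starts catecholamine synthesis in sympathetic neurons, had a UMI in 95 of 190 and 128 of 199 cells and in 45.0% and 47.4% of the background barcodes. Summed neuron markers were 1155 and 1291 CPM, against 2011 and 1713 CPM in C1q macrophages. Glial markers summed to 1050 and 1054 CPM, against 916 and 869 CPM in C1q macrophages. Fibroblast markers summed to 2066 and 2090 CPM, against 2379 and 2736 CPM in C1q macrophages. The part of this RNA in the results was not tested.

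Retnla, Lyz1 and Ccl6 were named with Ccr2 and Cd209a as the marker genes of these cells, so their levels against the other populations are given here as a description without a test. Retnla lies on chromosome 16 (48842551 to 48844461, plus strand, GRCm38) and encodes a secreted resistin-like protein that interleukin-4 and interleukin-13 induce in macrophages. It was at 2350 and 2071 CPM in the Ccr2 and Cd209a cells, against 446 and 294 CPM in C1q macrophages, 40.7 and 2.27 CPM in Xcr1 or Clec9a dendritic cells and 14.4 and 6.46 CPM in the remaining barcodes. Ccl6, a chemokine gene on chromosome 11 (83587882 to 83593087, minus strand), was at 544 and 472 CPM, against 141 and 144 CPM in C1q macrophages and 74.1 and 58.3 CPM in Xcr1 or Clec9a dendritic cells. Lyz1 was at 777 and 665 CPM, against 40.6 and 33.0 CPM in C1q macrophages, 12.6 and 15.9 CPM in Xcr1 or Clec9a dendritic cells and 2.07 and 2.51 CPM in the remaining barcodes. In both libraries each of these genes was highest in the Ccr2 and Cd209a cells. Ccr2 and Cd209a themselves, which chose the cells, were at 524 and 500 CPM and at 581 and 621 CPM. Ccr2 was not confined to these cells. In Xcr1 or Clec9a dendritic cells the markers of classical monocytes summed to 571 and 668 CPM with Ccr2 and to 266 and 353 CPM without it.

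Lyz1 needs care because its neighbour Lyz2, used in the rule, is nearly identical. Both encode lysozyme, which cuts bacterial cell walls; Lyz2 is the common myeloid form and Lyz1 is best known from Paneth cells of the gut. Lyz1 spans 117287797 to 117292868 and Lyz2 spans 117277331 to 117282321 on the minus strand of chromosome 10 (GRCm38). Their coding sequences of 447 bases are 95.1% identical, and the last 300 bases of the transcripts, from which a 3' library reads, are 93.8% identical, so reads shared between them make the level of Lyz1 uncertain. The last 120 coding bases are more alike than the whole coding sequence and than the last 300 bases of the transcripts. They are printed as an example, with capitals at the 2 bases that differ (transcripts of GENCODE M21, GRCm38):
Lyz1: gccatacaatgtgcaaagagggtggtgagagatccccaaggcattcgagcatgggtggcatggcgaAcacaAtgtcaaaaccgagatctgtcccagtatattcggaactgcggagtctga
Lyz2: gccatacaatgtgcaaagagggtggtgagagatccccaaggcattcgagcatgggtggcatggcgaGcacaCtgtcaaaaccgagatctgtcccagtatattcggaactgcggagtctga
For every 100 Lyz2 UMIs there were 25.3 and 21.7 Lyz1 UMIs in the Ccr2 and Cd209a cells, against 0.786 and 0.667 in C1q macrophages, which held 55124 and 53508 Lyz2 UMIs, 1.97 and 2.58 in Xcr1 or Clec9a dendritic cells and 3.72 and 6.26 in the remaining barcodes. The part of shared reads in these values was not tested. The last 300 bases of Cd209a and Cd209c were 45.2% identical and those of Ccl6 and Ccl9 45.6%. Ear2, Skint3, Clec4b1, Pira2 and Ifi205 also belong to families with close copies, whose sequences were not compared, and their levels are uncertain in the same way.

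**Figure D1:**
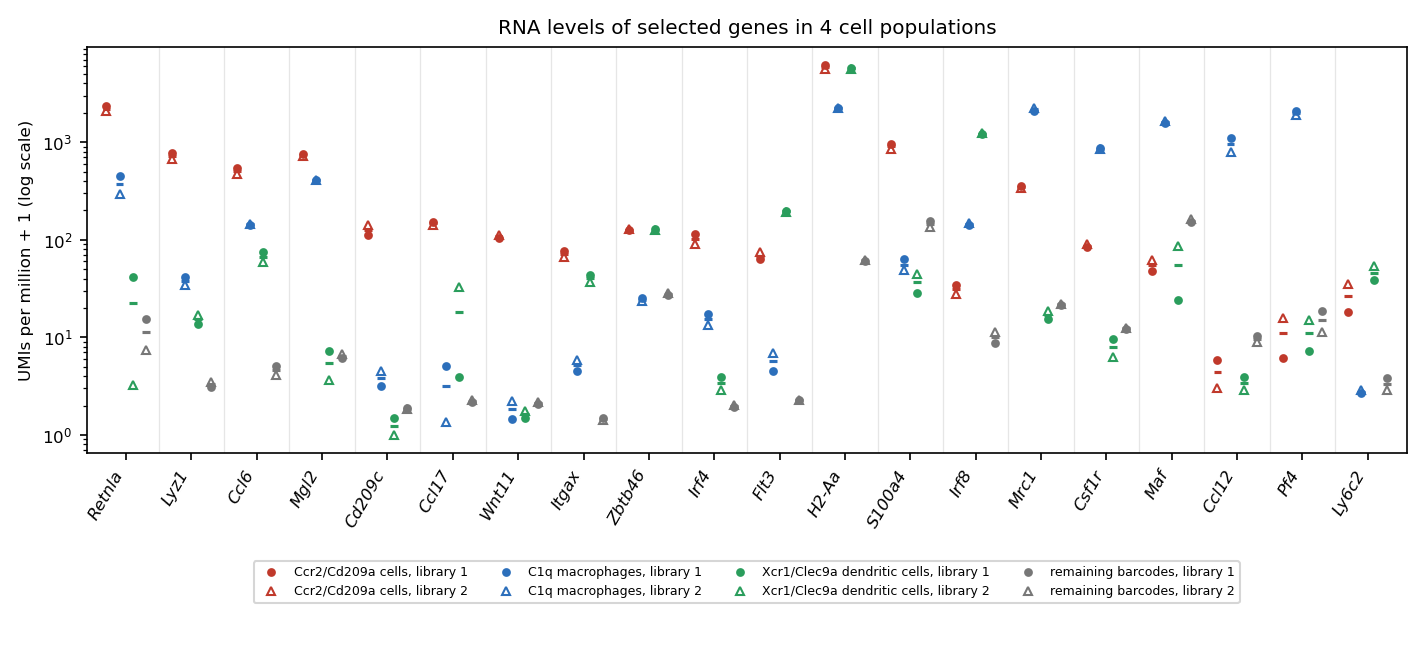
RNA levels (CPM plus 1, log scale) of 20 genes in the Ccr2 and Cd209a cells, C1q macrophages, Xcr1 or Clec9a dendritic cells and the remaining barcodes; filled circles are library 1, open triangles are library 2 and bars are their means. Retnla, Lyz1 and Ccl6 were highest in the Ccr2 and Cd209a cells of both libraries, Irf8 in Xcr1 or Clec9a dendritic cells, and Mrc1, Maf, Ccl12 and Pf4 in C1q macrophages.

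The question for the comparison with C1q macrophages was which genes separate these cells from the resident phagocytes of the same ganglia. The Ccr2 and Cd209a cells had more RNA of 10 of 12 MHC class II genes, 10 of 16 homing and adhesion genes and 4 of 7 S100 genes, and of Irf4, Zbtb46 and Flt3. They had less RNA of 7 of 10 iron and haem genes, 10 of 20 chemokines and 11 of 24 scavenging and lysosome genes, and of Maf, Csf1r and C5ar1. In edgeR's quasi-likelihood test on UMI sums per population and library, 1266 of 15945 genes were higher (7.94%) and 1042 lower (6.53%, or 14.5% in either direction), at a Benjamini-Hochberg adjusted p under 0.05 and a fold of at least 2; a gene is called higher or lower below only by this rule. The 12 genes of the rule were not tested. Because the populations were cut on C1q, Xcr1 and Clec9a in the same cells, genes that go with these had to differ. The p-values only set a difference against the spread between the libraries, which was largely drawn from all genes. With each cell thinned to 1500 UMIs, 761 genes were higher.

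Wnt11, a secreted signalling protein, was at 103 and 112 CPM in the Ccr2 and Cd209a cells and at 0.469 and 1.20 CPM in C1q macrophages, a log2 fold change of 7.12 with an SE of 0.22 (adjusted p = 3.8e-08). Ccl17, a chemokine that draws Ccr4-bearing T cells, was at 152 and 141 CPM, against 4.03 and 0.37 CPM. Cd226, an adhesion receptor better known on lymphocytes, was at 201 and 157 CPM, against 4.32 and 3.24 CPM, and Klrd1, a lectin-like receptor of natural killer cells, at 84.4 and 61.0 CPM, against 1.41 and 1.11 CPM. Bcl11a, a transcription factor of dendritic cell and lymphoid development, was at 107 and 96.0 CPM, against 2.81 and 2.04 CPM. All of these were higher, with log2 fold changes between 5.51 (Bcl11a) and 7.12 (Wnt11). Among the 12 genes of largest fold were also P2ry10, Upb1, Itgb7, Cd209c, Ltb4r1, Mcemp1 and Skint3, with log2 fold changes from 5.36 (Skint3) to 6.60 (P2ry10). Ltb4r1 is the receptor for leukotriene B4, and Itgb7 is the integrin chain that pairs with Itga4 to bind the gut address molecule Madcam1.

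At the other end, the chemokine gene Ccl12 was at 4.79 and 2.03 CPM, against 1115 and 790 CPM in C1q macrophages. Platelet factor 4, Pf4, was at 5.16 and 14.9 CPM, against 2108 and 1892 CPM, a log2 fold change of -7.48 with an SE of 0.32 (adjusted p = 1.5e-07). Cd209f, a lectin gene related to Cd209a, had 1 UMI in all Ccr2 and Cd209a cells and 1496 in the macrophages, 395 times lower per UMI (95% counting interval 70.7 to 15597). Cd209c was thus high where Cd209f was nearly absent. The level of Cd209a says nothing here, since the rule chose the cells by it. Stab1, a scavenger receptor, fell to 3.32 and 10.5 CPM, against 550 and 587 CPM. Slc40a1, the iron exporter ferroportin, fell to 0.369 and 2.03 CPM, against 76.6 and 72.2 CPM. The genes of largest decrease also held Cbr2, C5ar1, Ltc4s, Lyve1, Ms4a7, Lilra5 and Vcam1.

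Of 12 tested genes of MHC class II presentation, 10 were higher and 1 lower, with a median log2 fold change of 1.59, against -0.02 over all genes tested. H2-Aa, a class II chain, was at 6115 and 5637 CPM, against 2233 and 2255 CPM. Ciita, the factor that switches these genes on, was at 149 and 143 CPM, against 37.1 and 51.0 CPM. H2-Oa, a chain of the peptide-editing molecule H2-O, was at 52.0 and 47.5 CPM, against 1.97 and 2.04 CPM. The lower one was Lgmn, a lysosomal protease, at 161 and 160 CPM, against 766 and 732 CPM. None of 13 genes of MHC class I presentation was called in this comparison (median -0.04).

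Of 48 tested myeloid transcription factor genes, 16 were higher and 11 lower. Irf4 was at 114 and 89.5 CPM, against 16.2 and 12.5 CPM in C1q macrophages, and Zbtb46 at 125 and 126 CPM, against 24.4 and 22.3 CPM. Bhlhe40, a repressor of interleukin-10, was at 188 and 172 CPM, against 13.7 and 14 CPM, and Nr4a3, an orphan nuclear receptor, at 551 and 667 CPM, against 113 and 120 CPM. Maf fell to 47.2 and 61.0 CPM, against 1564 and 1662 CPM. Zeb2, a zinc finger repressor, was at 1352 and 1496 CPM, against 1269 and 1527 CPM, and was not called (log2 fold change 0.16, SE 0.19).

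Growth factor receptors also differed in both directions. Flt3 was at 62.3 and 73.2 CPM, against 3.57 and 5.92 CPM in C1q macrophages. Csf2ra and Csf2rb, the chains of the receptor for granulocyte-macrophage colony-stimulating factor, were higher, with log2 fold changes of 1.27 and 1.77. Csf1r fell to 83.0 and 88.5 CPM, against 871 and 847 CPM. Of 16 macrophage markers tested, none was higher and 15 were lower (median -3.52), which the limit on C1q bears on directly. Mrc1, the mannose receptor, was at 351 and 341 CPM, against 2112 and 2230 CPM. Cx3cr1 was at 28.0 and 20.7 CPM, against 605 and 625 CPM. Apoe was at 1597 and 1663 CPM, against 23686 and 23300 CPM.

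Of 16 tested homing and adhesion genes, 10 were higher and none lower (median 1.34), among them Itgax, the CD11c chain of dendritic cells, at 76.3 and 65.8 CPM, against 3.47 and 4.90 CPM. Cd44, a hyaluronan receptor, was at 603 and 701 CPM, against 87.3 and 106 CPM. S100 genes, whose products bind calcium and several of which go with cell movement, had 4 of 7 higher and none lower (median 1.81). S100a4 was at 960 and 853 CPM, against 61.9 and 47.6 CPM in C1q macrophages.

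Chemokine genes went mostly the other way, with 4 of 20 higher and 10 lower (median -1.48). The higher ones were Ccl9, Ccl17, Ccl22 and Ccl6, which was chosen for its level. Ccl2, the ligand of Ccr2, fell to 42.4 and 22.7 CPM in the Ccr2 and Cd209a cells, against 502 and 324 CPM in C1q macrophages, and Cxcl2, which draws neutrophils, to 181 and 106 CPM, against 1214 and 1168 CPM. Among 16 tested receptors of chemokines and other attractants, 3 were higher and 9 lower (median -2.06). C5ar1, the receptor for complement fragment C5a, fell to 4.42 and 4.75 CPM, against 296 and 288 CPM.

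Genes of uptake and recycling were more often lower than higher. Of 24 tested genes of scavenging and the lysosome, 2 were higher and 11 lower (median -0.89), and of 10 genes of iron and haem, 7 were lower and none higher (median -1.86). Hmox1, which breaks down haem, was at 71.9 and 50.9 CPM, against 214 and 227 CPM. Lpl, lipoprotein lipase, was one of the higher genes, at 361 and 282 CPM, against 46.4 and 47.5 CPM. Pattern recognition receptors had 3 of 22 genes higher and 11 lower (median -1.22). Tlr7, which senses single-stranded RNA, was at 5.16 and 5.09 CPM, against 113 and 110 CPM, and Nod2, which senses bacterial muramyl dipeptide, at 72.3 and 69.5 CPM, against 14.1 and 19.2 CPM.

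Cell division genes were higher in 13 of 22 and lower in none (median 1.34). Mki67, a gene of cycling cells, was at 100 and 86.5 CPM, against 12.9 and 17.5 CPM in C1q macrophages and 81.8 and 80.3 CPM in Xcr1 or Clec9a dendritic cells. Against the dendritic cells, 1 of the 22 genes was higher (Ccnd2) and none lower. A UMI of Mki67 was found in 17.9% and 23.6% of the Ccr2 and Cd209a cells, against 3.89% and 4.52% of C1q macrophages, and with all cells thinned to 1500 UMIs in 6.84% and 7.04%, against 0.911% and 1.42%. Cycling was not read from these genes alone.

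The comparison with Xcr1 or Clec9a dendritic cells asked which genes separate the cells from the other dendritic-like population of these ganglia. In the Ccr2 and Cd209a cells 13 of 18 C-type lectins, 14 of 20 Fc receptors and Siglecs, 9 of 12 genes of alternative activation and 8 of 13 genes of leukotrienes and prostaglandins were higher. Of 13 class I presentation genes 6 were lower and 7 not called, and of 33 interferon-stimulated genes 13 were lower, 6 higher and 14 not called. In the same edgeR fit, 928 of 15945 genes were higher (5.82%) and 709 lower (4.45%, or 10.3% in either direction). Both counts moved under thinning to 1500 UMIs, to 495 and 368.

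H2-Aa was at 6115 and 5637 CPM in the Ccr2 and Cd209a cells and at 5747 and 5674 CPM in Xcr1 or Clec9a dendritic cells, a log2 fold change of -0.09 with an SE of 0.07 (adjusted p = 0.43). Of 12 class II genes, 3 were higher and 1 lower (median -0.15, against 0.02 over all genes tested). H2-Ob, the second chain of H2-O, was the lower one, at 40.6 and 42.4 CPM, against 132 and 138 CPM. Class I presentation had 6 of 13 genes lower and none higher (median -0.98). Psmb9, a subunit of the immunoproteasome that cuts peptides for class I, was at 78.9 and 66.1 CPM, against 370 and 349 CPM, and Tap2, which pumps peptides into the endoplasmic reticulum, at 32.1 and 30.9 CPM, against 109 and 80.7 CPM.

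Irf8 was at 33.2 and 27.1 CPM, against 1203 and 1234 CPM in Xcr1 or Clec9a dendritic cells, a log2 fold change of -5.47 with an SE of 0.16 (adjusted p = 3.9e-08). Irf4 stood the other way, at 114 and 89.5 CPM, against 2.90 and 1.89 CPM. Cebpb, a factor of monocytes and macrophages, was at 355 and 333 CPM, against 12.1 and 15.1 CPM, and Id2 fell to 104 and 96.3 CPM, against 797 and 732 CPM. Zbtb46 was at 125 and 126 CPM, against 127 and 125 CPM (log2 fold change -0.14, SE 0.11, adjusted p = 0.42). Batf3 was at 108 and 107 CPM, against 123 and 136 CPM, and was not called. Flt3 fell to 62.3 and 73.2 CPM, against 197 and 193 CPM. Of 8 tested markers of type 1 dendritic cells, 7 were lower and none higher (median -3.45), among them Itgae and Tlr3; the rule excluded Xcr1 and Clec9a.

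Mgl2, a galactose-type lectin of type 2 dendritic cells, was at 750 and 725 CPM, against 6.29 and 2.65 CPM, a log2 fold change of 7.31 with an SE of 0.19 (adjusted p = 3.9e-08). Cd209c had 711 UMIs in the Ccr2 and Cd209a cells and 1 in the dendritic cells, 591 times more per UMI (95% counting interval 106 to 23381). Of 18 C-type lectin genes, 13 were higher and 2 lower, with a median of 4.06, or 3.25 with genes absent from one population set at their bound. Fc receptor and Siglec genes had 14 of 20 higher and none lower (median 3.14). Fcgr3, a low-affinity receptor for immunoglobulin G, was at 116 and 109 CPM, against 2.42 and 3.79 CPM.

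Among genes of alternative activation, 9 of 12 were higher and none lower (median 4.69, or 4.23 with bounds). Ear2, an eosinophil-type ribonuclease, was at 252 and 239 CPM, against 7.26 and 6.06 CPM. Il1rl1, the receptor for interleukin-33, was at 77.1 and 72.2 CPM, against 1.94 and 0 CPM. Chemokine genes were higher in 8 of 20 and lower in 1, which was Cxcl9. Ccl9 was at 390 and 354 CPM, against 3.87 and 2.65 CPM. Of 17 cytokine genes, 8 were higher and 2 lower (median 1.30). Il1b was at 956 and 1030 CPM, against 245 and 303 CPM, and Tnf at 119 and 137 CPM, against 26.1 and 43.2 CPM.

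Enzymes and receptors of prostaglandins and leukotrienes had 8 of 13 genes higher and none lower (median 1.21). Ptgs2, the inducible cyclooxygenase, had 479 UMIs in the Ccr2 and Cd209a cells and 3 in the dendritic cells, 133 times more per UMI (95% counting interval 45.2 to 646). Ptgir, the receptor for prostacyclin, was at 42.8 and 42.7 CPM, against 0.968 and 0.757 CPM, and was higher than in C1q macrophages too, which had 1.22 and 2.13 CPM. Ltc4s, which makes leukotriene C4, was at 2.58 and 3.39 CPM, against 184 and 170 CPM in C1q macrophages and 3.87 and 2.65 CPM in the dendritic cells, and was lower than in the macrophages. In the test against the macrophages 4 of the 13 genes were higher and 7 lower.

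Interferon-stimulated genes had 6 of 33 higher and 13 lower than in Xcr1 or Clec9a dendritic cells (median -0.58). Irf7 was at 74.5 and 38.3 CPM, against 256 and 312 CPM. Ifi205 was at 29.9 and 30.2 CPM, against 628 and 591 CPM. Of the Toll-like receptors, Tlr3, Tlr9, Tlr11, Tlr12 and Tlr13 were lower and Tlr2, Tlr7 and Tlr8 higher. With cells thinned to 1500 UMIs, Tlr2, Tlr7, Tlr8, Tlr9, Tlr11 and Tlr13 were no longer called, with adjusted p-values in edgeR from 0.15 for Tlr11 to 0.58 for Tlr9. With the rule and the test on separate UMIs, Tlr7 (adjusted p = 0.081 in edgeR), Tlr8 (0.077) and Tlr9 (0.36) were not called either. Htr7, a serotonin receptor, was at 2.21 and 3.73 CPM, against 198 and 212 CPM (log2 fold change -6.23, SE 0.18).

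**Figure D2:**
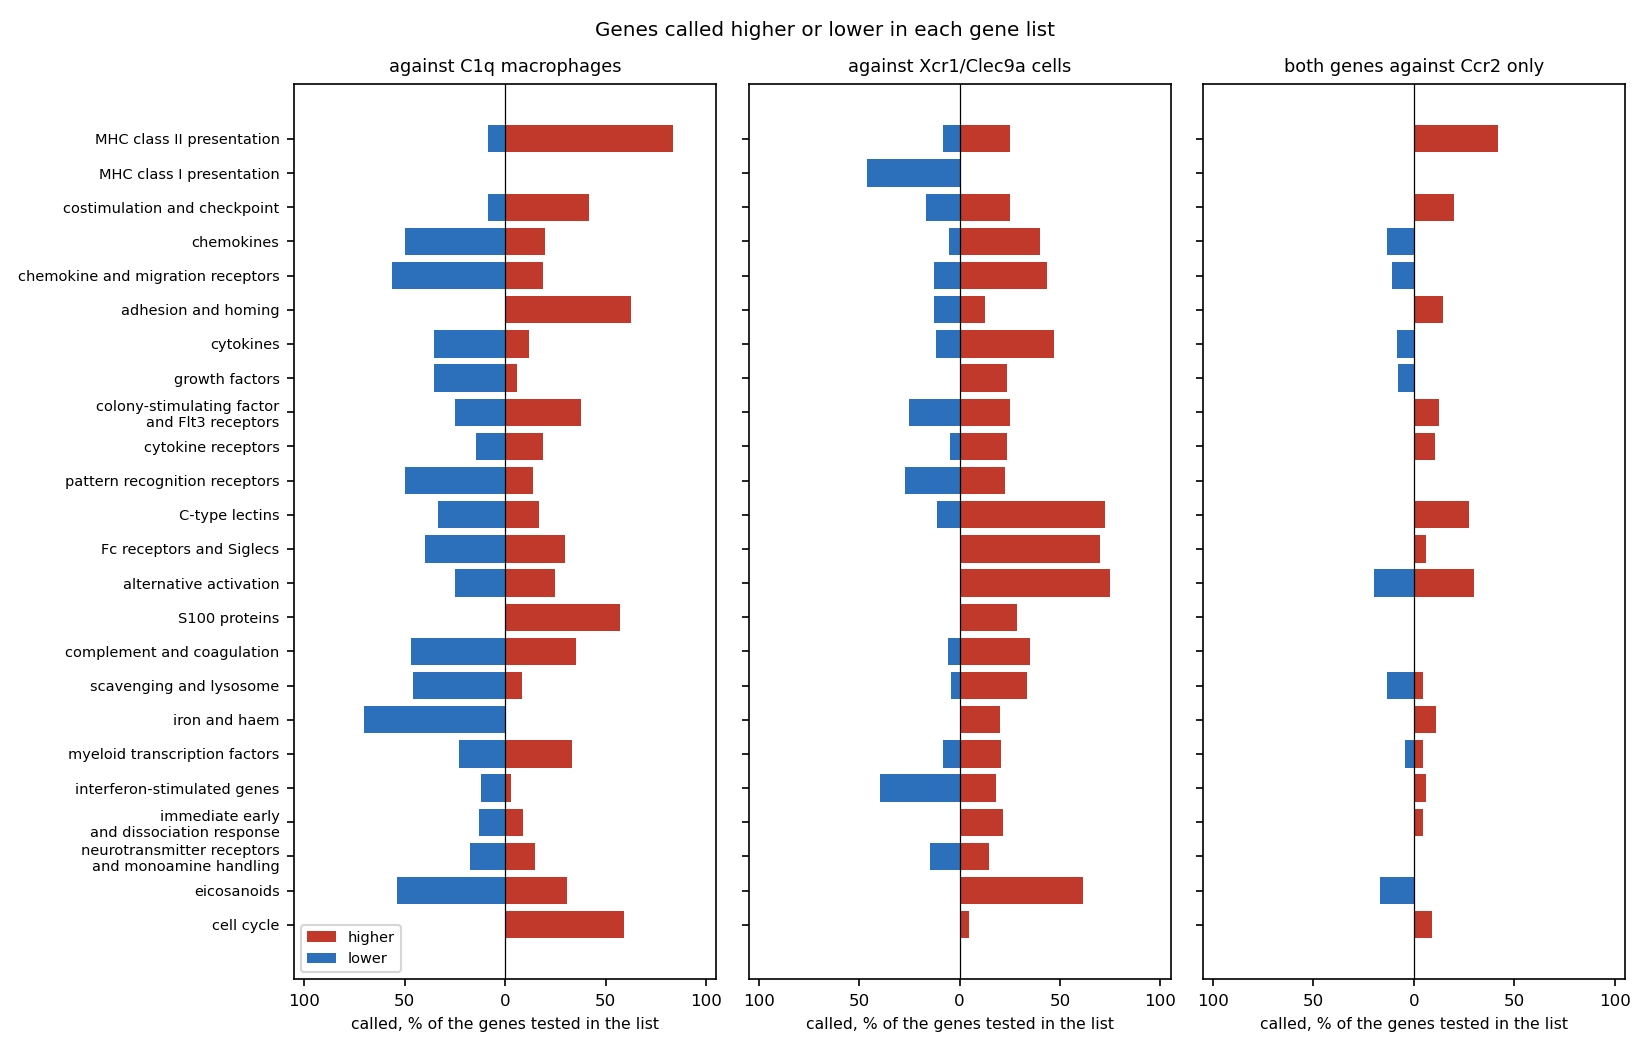
Share of the tested genes of each list called higher (red, to the right) or lower (blue, to the left) in the Ccr2 and Cd209a cells against C1q macrophages and against Xcr1 or Clec9a dendritic cells, and in cells with both Ccr2 and Cd209a against cells with Ccr2 alone; the horizontal axis is the percentage of the list. MHC class II genes had 10 of 12 higher in the first comparison, 3 in the second and 5 in the last, and iron genes had 7 of 10 lower in the first.

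Set against all remaining barcodes of the ganglia, 2988 genes were higher (18.7%) and 3728 lower (23.4%, or 42.1% in either direction), with a median log2 fold change of -0.15 over all genes. Of the higher genes, 1868 and 1960 were at least 2-fold higher in library 2 and library 1 taken alone, with 1 CPM added to both levels. Tnip3, an inhibitor of NF-kB signalling, was at 563 and 592 CPM, against 2.28 and 2.94 CPM, and Clec4b1 at 223 and 193 CPM, against 1.07 and 1.01 CPM. Aldh1a2, which makes retinoic acid, was at 69.7 and 62.4 CPM, against 0.316 and 0.507 CPM. All 12 class II genes were higher, with a median log2 fold change of 6.66.

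The cells were not uniform, and the question of whether the monocyte and dendritic parts of their name fall on different cells was read from the genes of the rule itself. UMIs of both Ccr2 and Cd209a were found in 119 cells of library 1 (62.6%) and 130 of library 2 (65.3%), Ccr2 alone in 61 (32.1%) and 58 (29.1%), and Cd209a alone in 10 (5.26%) and 11 (5.53%). Cells with both genes were set against cells with Ccr2 alone, a comparison added after these numbers were seen, because the 21 cells with Cd209a alone are few. The median depth was 14463 and 14271 UMIs in cells with both and 12462 and 12703 in cells with Ccr2 alone, and the doublet caller marked 8.40% and 6.92% against 18.0% and 17.2%. Fibroblast markers moved with the split: they summed to 1121 and 1627 CPM in cells with both genes, against 4044 and 3132 CPM in cells with Ccr2 alone, and 3 of 6 tested (Col1a1, Col1a2 and Lum) were lower. The part of free RNA in the other results was not tested. Without marked doublets, 23 of the 24 genes of largest fold named by rule could be tested, and each was called in the same direction.

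Cells with both genes had more RNA of 5 of 12 MHC class II genes and of 6 of 11 type 2 dendritic cell markers, and less of Lyz1, Retnla, Fn1, Lpl and Cebpb. In edgeR's quasi-likelihood test 96 of 9208 genes were higher (1.04%) and 79 lower (0.858%, or 1.9% in either direction), and without the library block 146 were lower. DESeq2 called 58 higher. Without marked doublets, 136 were lower. Because the subsets were cut on Ccr2 and Cd209a in the same cells, genes that go with these had to differ. The p-values of the subset comparisons therefore only set a difference against the spread between the libraries, which was largely drawn from all genes.

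Lyz1 was at 86.2 and 99.8 CPM in cells with both genes, against 2381 and 2129 CPM in cells with Ccr2 alone, a log2 fold change of -4.48 with an SE of 0.21 (adjusted p = 0.0013). Retnla was at 563 and 518 CPM, against 6554 and 6120 CPM, a log2 fold change of -3.44 with an SE of 0.48 (adjusted p = 0.021). Fn1, the matrix protein fibronectin, was at 183 and 157 CPM, against 2041 and 1695 CPM, and Lpl at 99.3 and 76.9 CPM, against 973 and 816 CPM. Ccl6 was at 282 and 275 CPM, against 1175 and 999 CPM. Library 1 and library 2 gave the same sign for all 175 genes called in this comparison, so a shared sign does not set these genes apart. DESeq2 did not call Retnla, with nearly the same log2 fold change of -3.49 (adjusted p = 0.75), whereas each of the other alternatives with a test did. Cebpb was at 158 and 199 CPM, against 821 and 692 CPM, and was 1 of 2 lower among 44 tested transcription factors. Cxcl2 fell to 15.3 and 42.8 CPM, against 565 and 276 CPM. Ly6c2 was at 1.13 and 14.8 CPM, against 54.8 and 86.9 CPM, and was not called (adjusted p = 0.056). F13a1, coagulation factor XIII A, was at 53.3 and 67.2 CPM, against 501 and 507 CPM, and was not called either (adjusted p = 0.055 in edgeR). Alternatives split on both. Ly6c2 was called by DESeq2 (adjusted p = 0.026), without the filter on low counts (3.8e-12) and with the rule and the test on separate UMIs (0.0033), but not without marked doublets, without the library block, with DESeq2's size factors or with at least 3 UMIs of Ccr2 plus Cd209a. F13a1 was called by edgeR without marked doublets (adjusted p = 0.00091), without the filter (1.8e-27), without the library block (0.027), in thinned cells (0.00019) and with separate UMIs (8.7e-05), but not by DESeq2, with its size factors or with at least 3 UMIs.

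Of 11 tested type 2 dendritic cell markers, 6 were higher and none lower (median 2.48, against -0.01 over all genes): Clec10a, Mgl2, Flt3, Zbtb46, Kmo and Dpp4. Dpp4 was not called in thinned cells (adjusted p = 0.077 in edgeR). Of 7 tested markers of mature dendritic cells none was called (median -0.10), and of 7 of type 1 cells 1 was higher. Zbtb46 was at 166 and 168 CPM in cells with both genes, against 34.1 and 21.7 CPM in cells with Ccr2 alone. Mgl2 was at 970 and 966 CPM, against 217 and 151 CPM. Cd209c was at 160 and 204 CPM, against 4.87 and 1.21 CPM, a log2 fold change of 5.95 with an SE of 0.44 (adjusted p = 0.0045). Irf4 was not called, at 137 and 95.7 CPM, against 75.5 and 77.3 CPM, nor was Itgax, at 78.3 and 69.2 CPM, against 79.2 and 64.0 CPM. Class II genes had 5 of 12 higher and none lower (median 0.85). H2-Eb1 was at 7313 and 6603 CPM, against 3693 and 3228 CPM, with a log2 fold change that fell under the limit of 2-fold, to 0.90, without marked doublets. H2-Oa was at 70.3 and 64.7 CPM, against 4.87 and 3.62 CPM.

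Further genes higher in cells with both were Stat4, which carries interleukin-12 signals, at 263 and 283 CPM, against 3.65 and 38.6 CPM, and the lectin-like receptors Klrd1, Klrb1b and Klri1. Gpr171, Kynu, P2ry10, Mcemp1, Itgb7 and Rgs5 complete the 12 of largest fold. Rgs5 is a pericyte gene and stood at 39.7 and 89.6 CPM, against 2.44 and 12.1 CPM; the 6 markers of pericytes and smooth muscle summed to 198 and 245 CPM, against 49.9 and 96.6 CPM, and their part in the result was not tested. Kynu was not called with at least 3 UMIs of Ccr2 plus Cd209a (adjusted p = 0.066 in edgeR), Itgb7 was not called in thinned cells (0.097), and Rgs5 was not called with the rule and the test on separate UMIs (0.11). Tnfsf9, a costimulatory ligand of T cells, was at 241 and 154 CPM, against 34.1 and 35 CPM. Il1r2, the decoy receptor for interleukin-1, was at 175 and 178 CPM, against 48.7 and 16.9 CPM, and was not called in thinned cells (adjusted p = 0.096 in edgeR) or with at least 3 UMIs of Ccr2 plus Cd209a (0.052).

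**Figure D3:**
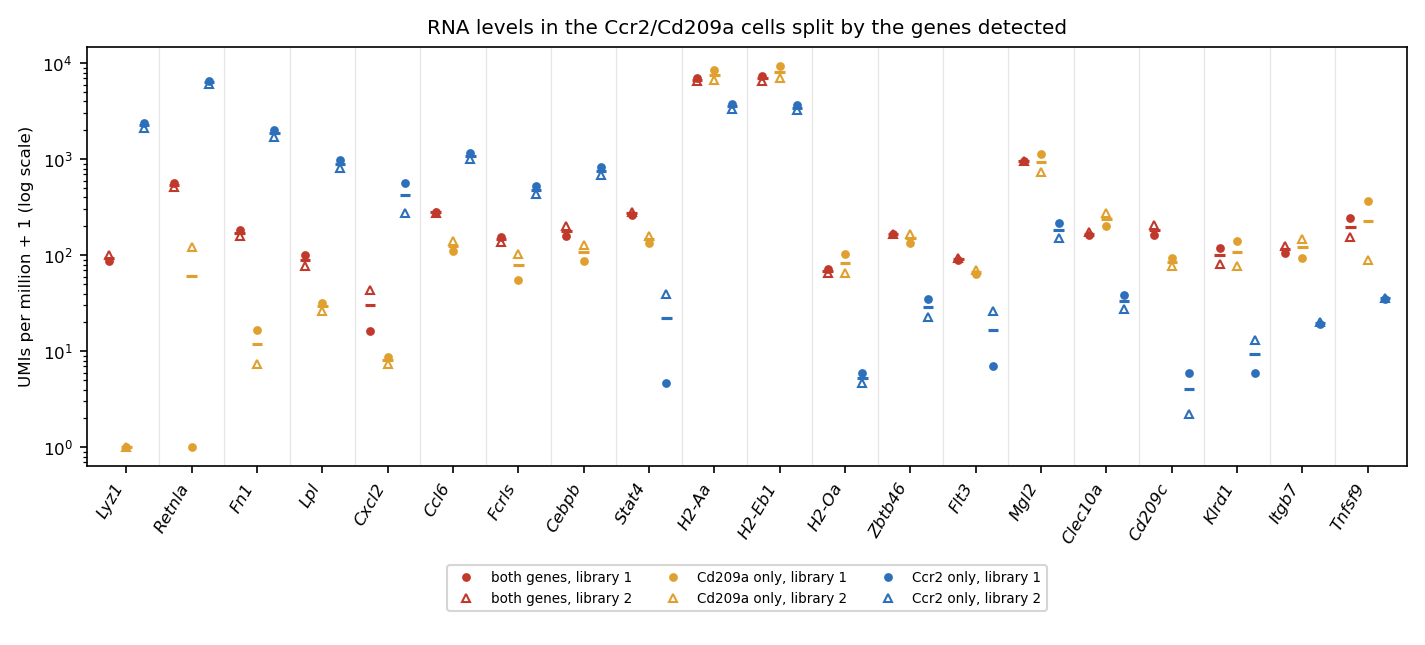
RNA levels (CPM plus 1, log scale) of 20 genes in cells with both Ccr2 and Cd209a, with Cd209a alone and with Ccr2 alone; filled circles are library 1, open triangles are library 2 and bars are their means. Lyz1, Retnla, Fn1 and Lpl were highest in cells with Ccr2 alone in both libraries, and H2-Oa, Zbtb46, Mgl2 and Cd209c were higher in cells with Cd209a.

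Cells with Cd209a alone, 10 and 11 cells of 128353 and 157074 UMIs, were set against cells with Ccr2 alone in the same fit. There 89 of 9208 genes were higher (0.967%) and 70 lower (0.76%, or 1.73% in either direction), and without the library block 118 were lower; without marked doublets 173 were higher and 231 lower. Both comparisons share the cells with Ccr2 alone, so their likeness is no independent result. Lyz1 had no UMI in cells with Cd209a alone and 3719 in cells with Ccr2 alone, at least 215-fold lower with a floor of 3 UMIs over both libraries (10.5 CPM). Fn1 had 3 UMIs against 3080, 178 times lower per UMI (95% counting interval 60.7 to 862). Retnla was at 0 and 121 CPM, against 6554 and 6120 CPM. Mcemp1, a membrane protein first described in mast cells, was at 249 and 185 CPM, against 15.8 and 24.1 CPM. Interferon-stimulated genes had 7 of 32 higher and none lower (median 1.72, against -0.05 over all genes); Irf7 was at 218 and 166 CPM, against 56.0 and 27.8 CPM, and was not called without the library block (adjusted p = 0.059 in edgeR). Mcemp1 was not called in thinned cells (0.079). Library 2 held more glial and macrophage RNA in this small group, 2235 against 397 CPM for glial markers and 5424 against 1067 CPM for macrophage markers, and their part in the results was not tested.

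Retnla and Lyz1 came from a minority of the cells. A UMI of Retnla was found in 30.5% and 30.2% of them, in 65.6% and 63.8% of those with Ccr2 alone and in 15.1% and 16.2% of those with both genes. The share was 3.26% and 2.04% in the background barcodes, those without Ptprc and with little Lyz2 and Cd74. With each cell thinned to 1500 UMIs the shares were 62.3% and 60.3% with Ccr2 alone and 10.9% and 8.46% with both. In libraries 1 and 2, 50 and 44 cells held at least 10 Retnla UMIs, up to 748 and 723 in a cell. The 19 and 20 cells with the most Retnla UMIs held 78.6% and 81.3% of all Retnla UMIs of the population, and the same number of cells held 89.0% and 89.8% of all Lyz1 UMIs. Of the Retnla-rich cells, 11 of 50 (22%) and 11 of 44 (25%) had a UMI of Cd209a, against 118 of 140 (84.3%) and 130 of 155 (83.9%) of the rest. At least 10 UMIs of both Retnla and Lyz1 were found in 30 and 26 cells.

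**Figure D4:**
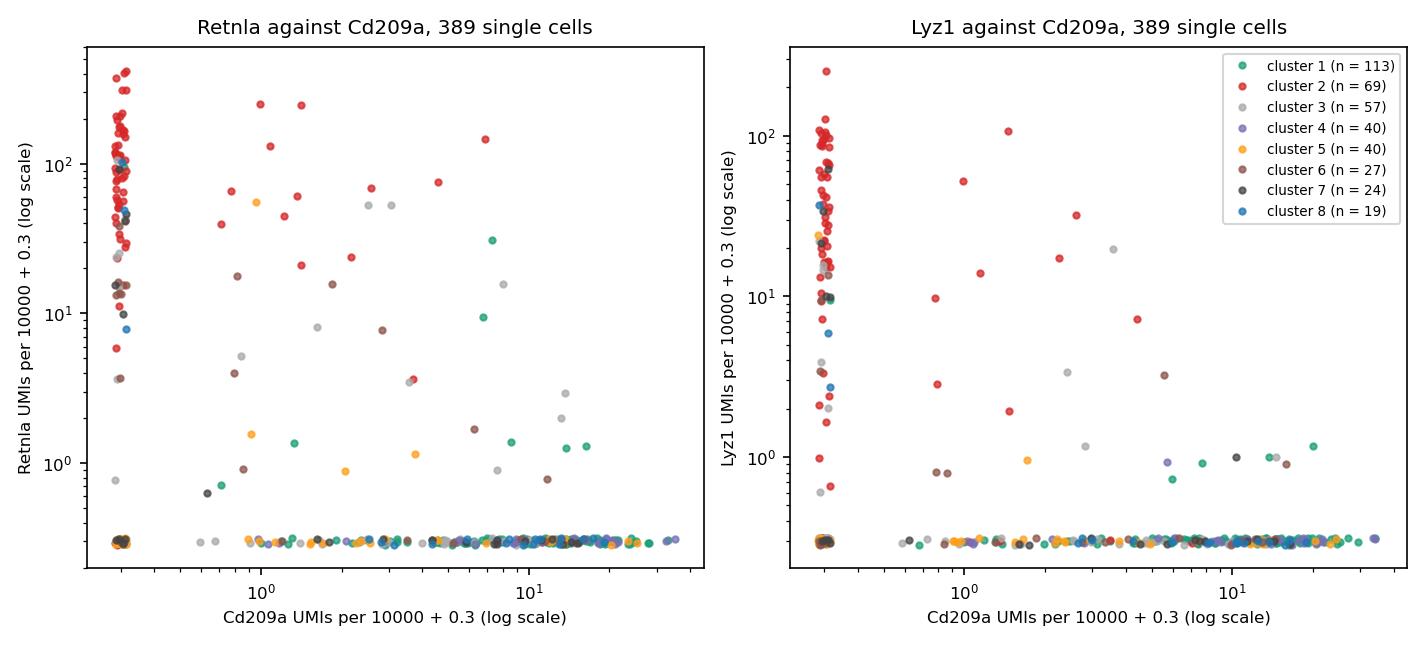
Retnla (left) and Lyz1 (right) against Cd209a in each of the 389 cells, in UMIs per 10000 plus 0.3 on log scales, with points moved slightly at random to separate cells at 0 and coloured by cluster. Of the 69 cells of cluster 2, 66 had a UMI of Retnla and 55 had none of Cd209a, and of the 113 cells of cluster 1, 8 had a UMI of Retnla and 109 had one of Cd209a.

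For a description of how the cells vary, each UMI was assigned at random to a clustering set or a measuring set; cells were clustered on the first, and levels are from the second. As the clusters were formed from genes of these same cells, no test is given. There were 8 clusters, each with cells of both libraries. Cluster 1 (113 cells, 52 and 61 in the libraries) led with Chgb, Cd209c, Ccl17, Stat4 and Klrb1b. Cd209a was at 1044 CPM and Flt3 at 128 CPM there, and 103 of its cells had both genes; Chgb is a gene of secretory granules of neurons. Cluster 2 (69 cells, 34 and 35) led with Lyz1, Retnla, Fn1 and Lpl. It held 55 cells with Ccr2 alone, 14 with both and no marked doublet. Its Retnla level was 11522 CPM, against 0 to 1299 CPM in the other 7 clusters. Cd209a was at 33.8 CPM in cluster 2, Flt3 at 6.75 CPM and Zbtb46 at 29.3 CPM, whereas H2-Aa was at 3679 CPM. It held 82.3% and 83.2% of all Retnla UMIs, 93.7% and 79.0% of those of Lyz1, 76.8% and 74.2% of those of Fn1 and 57.2% and 54.3% of those of Ccl6. For every 100 Lyz2 UMIs it had 45.9 and 35.3 of Lyz1, against 0.673 and 0.434 in cluster 1. Cluster 7 had 13.4 and 36.9, cluster 8 had 6.21 and 34.6, and cluster 3 had 1.97 and 13.1. A high ratio was thus not particular to cluster 2 in library 2.

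The monocyte genes did not share a cluster. Fn1 (3217 CPM) and F13a1 (813 CPM) were high in cluster 2, where Ly6c2, Chil3 and Cx3cr1 had no UMI. Ly6c2 was at 162 CPM, Plac8 at 266 CPM and Chil3 at 70.8 CPM in cluster 5 (40 cells, 23 and 17). That cluster led with interferon-stimulated genes, Rsad2 at 683 CPM, Isg15 at 1519 CPM, Ifit3 at 574 CPM and the chemokine Cxcl10 at 1552 CPM, and Irf8 was at 212 CPM. Its 40 cells were 22 with both genes, 15 with Ccr2 alone and 3 with Cd209a alone. Ly6c2 was found in 15% of its cells by the UMIs of the measuring set.

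Cluster 4 (40 cells, 22 and 18) had Cd209a at 1078 CPM and the inflammatory genes Il1b at 2410 CPM, Tnfsf9 at 365 CPM and Ptgs2 at 235 CPM. Retnla had no UMI there, and 31 of its cells had both genes. Cluster 6 (27 cells) led with Dcstamp, a membrane protein of cell fusion, at 457 CPM, and Phlda1 at 660 CPM. Dcstamp was nearly as high in cluster 2, at 432 CPM. In cluster 8 (19 cells, 11 and 8) every cell had a UMI of Mki67, with Top2a at 972 CPM and Cenpf at 585 CPM; 15 of the 19 had both Ccr2 and Cd209a. Cluster 3 (57 cells) led with Adgrb3, Stard13 and Nkain2, and cluster 7 (24 cells) with Acta2, a smooth muscle actin, Apod and Smoc2. Dcn, a fibroblast gene, was at 12809 CPM in cluster 7. The doublet caller marked 24 cells (42.1%) of cluster 3 and 15 (62.5%) of cluster 7, and the other 2 marked cells were in cluster 1.

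**Figure D5:**
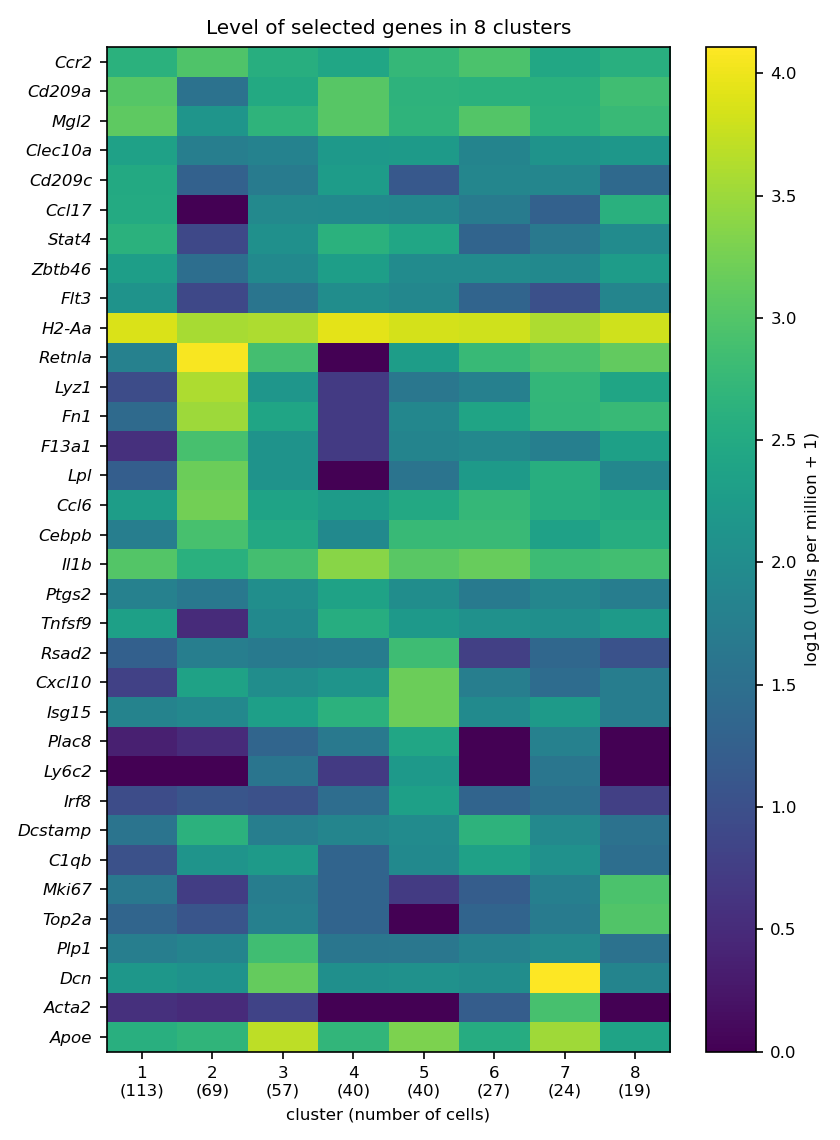
Level (colour, log10 of CPM plus 1) of selected genes in the 8 clusters of the Ccr2 and Cd209a cells, from UMIs not used for clustering; numbers of cells are in parentheses. Retnla, Lyz1 and Fn1 peak in cluster 2, Rsad2 and Ly6c2 in cluster 5, Mki67 in cluster 8 and Dcn in cluster 7.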

How the data were processed

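The deposited values are raw UMI counts per gene and cell barcode, per the file headers and values, from 10x Genomics 3' libraries per the labels. The submitters' processing notes name Cell Ranger 6.1.2 and mm10 (GRCm38), and the sources used here do not give the annotation release, the cell filters, or whether introns were counted or strand was used. The 2 libraries held 94521010 and 95235439 UMIs in 24873 barcodes over 32183 genes. All deposited barcodes were used. Doublets were marked with Scrublet in scanpy 1.11.5 within each library and kept, and leaving them out was an alternative. The members, gene lists and comparisons were chosen with earlier results of these data known. Some genes are not reported here.

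UMIs were summed per library and population. Genes were filtered with filterByExpr, scaled by TMM and tested with edgeR 4.0.16 (R 4.3.3) by the quasi-likelihood test with the library as a block, since the populations of a library come from 1 suspension. One fit held the 4 populations (15945 genes, 3 residual degrees of freedom, 6.502 prior degrees of freedom) and another the 3 subsets of the cells (9208 genes, 2 and 5.337), so the spread of a gene was largely drawn from all genes. Benjamini-Hochberg adjustment of p-values ran over all genes of a comparison, and SE is the standard error of the log2 fold change. Levels are CPM, UMIs per 1e+06 UMIs of the population. Named genes were the marker genes, examples from each gene list, and per comparison the 12 called genes of largest fold in each direction with the same sign in both libraries and at least 50 CPM in the higher population, without clone names and mitochondrial genes; further genes given in the text were chosen after their values were seen. Intervals of shares and of ratios of few UMIs are exact binomial at 95% and cover counting error only.

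For clustering, UMIs were split at random with probability 0.5; 1500 variable genes, 20 components, 15 neighbours and Leiden resolution 0.8 (leidenalg 0.10.2) were used. Alternatives were DESeq2 1.42.0, its size factors in edgeR, no filter on low counts, no replicate block, each library left out, marked doublets left out, at least 3 UMIs of Ccr2 plus Cd209a, fewer than 10 C1q UMIs per 10000 (shares only), cells thinned to 1500 UMIs, and the rule and the test on separate random sets of the UMIs. Python 3.11.15, numpy 2.4.6, scipy 1.17.1, pandas 2.3.3, anndata 0.12.19, biopython 1.88 and matplotlib 3.10.9 were used.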

Additional observations from a re-analysis of the deposited data

How the results depend on the processing

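The library is a block in the reported fits. Without the replicate block, 118 genes were lower in cells with Cd209a alone than in cells with Ccr2 alone, with all 70 of the reported ones among them, and 146 were lower in cells with both genes, with 77 of the reported 79 among them; the other counts stayed within 1.5 times. Cells thinned to 1500 UMIs, which left fewer genes to test, gave 761 genes higher than in C1q macrophages (662 of them reported), 495 higher and 368 lower than in Xcr1 or Clec9a dendritic cells, 2412 lower than in the remaining barcodes, 12 higher and 29 lower in cells with Cd209a alone and 56 higher in cells with both genes. In that setting the sign of Cd209c turned in cells with Cd209a alone, to a log2 fold change of -3.27 that was not called. Thinning before the rule gave shares of 0.746% and 0.839% of barcodes. Without the filter on low counts, 236 genes were higher and 440 lower in cells with Cd209a alone, and 208 higher and 342 lower in cells with both, with all reported ones among them. Without marked doublets these were 173 and 231 for cells with Cd209a alone, and 136 were lower in cells with both. DESeq2 gave 58 genes higher in cells with both, and at least 3 UMIs of Ccr2 plus Cd209a gave 62. With the rule and the test on separate random sets of the UMIs, 170 were lower in cells with Cd209a alone. Beyond the fewer genes or cells tested, the cause of these shifts was not tested.

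A single library leaves no spread to test, so leaving one out gives the called genes that were at least 2-fold the same way in the other, with 1 CPM added. These were 981 to 1031 higher and 951 to 972 lower against C1q macrophages, 850 to 884 higher and 543 to 568 lower against Xcr1 or Clec9a dendritic cells, and 1868 to 1960 higher and 3653 to 3678 lower against the remaining barcodes. For cells with Cd209a alone they were 81 to 87 higher and 70 lower, and for cells with both genes 86 to 90 higher and 79 lower. With 2 libraries of 1 group, 190 and 199 cells and 10 and 11 with Cd209a alone, low genes and the small subsets limit what these data can show.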

Other observations

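Receptors for transmitters and nucleotides, of interest in a sympathetic ganglion, were called in both directions. Of 34 tested genes of neurotransmitter receptors and monoamine handling, 5 were higher and 6 lower in the Ccr2 and Cd209a cells than in C1q macrophages, beside 7.94% and 6.53% of all genes tested. The adenosine receptor Adora2b was at 30.2 and 27.8 CPM in the Ccr2 and Cd209a cells, against 1.88 and 2.31 CPM in C1q macrophages and 1.94 and 3.03 CPM in Xcr1 or Clec9a dendritic cells, and was higher in both tests. The purine receptor P2ry12 was at 5.53 and 6.78 CPM, against 141 and 148 CPM in C1q macrophages.

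Growth factor genes had 1 of 17 higher, a share near that of all genes, and 6 lower than in C1q macrophages (median log2 fold change -0.88). Igf1 was at 28.0 and 26.8 CPM, against 293 and 302 CPM, and Gas6, a ligand of receptors for the uptake of dead cells, at 17.0 and 25.8 CPM, against 194 and 199 CPM.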
